A study of Arabidopsis thaliana with 18 samples.

Results

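The 4 genes IAA29, IAA30, IAA18 and IAA34 encode Aux/IAA repressors of auxin signalling in Arabidopsis thaliana. They were taken from the array as the probe sets whose platform annotation names exactly 1 of them, which gave 1 probe set per gene, 4 of the 22746 probe sets left after removal of controls and 4 of the 13513 that name a single gene. The study asked why a pair of shade avoidance mutants and the wild type react differently to shade. RNA came from whole seedlings, 7 days old, hybridized to 18 Affymetrix arrays. The 6 groups of 3 arrays were sav3-2 SH, sav3-2 Wc, sav1-1 SH, sav1-1 Wc, Col-0 SH and Col-0 Wc. All seedlings had the Col-0 background and grew on Murashige Skoog medium at 22 °C in continuous light simulating white light (Wc), with red at 13 and blue at 1.23 µmol m-2 s-1. SH seedlings then received 20.2 µmol m-2 s-1 of far-red for 1 h, which lowered the red to far-red ratio (R:FR) to 0.7. Each mutant is represented by 1 allele. SAV3, also known as TAA1, makes an auxin precursor; no probe set used here names it, so the mutation could not be checked, and the labels do not say which gene sav1-1 affects.

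Aux/IAA proteins bind auxin response factors and, with TOPLESS corepressors, hold their target genes off. Auxin joins an Aux/IAA protein to a TIR1/AFB receptor through the degron called domain II, and the repressor is then ubiquitinated and destroyed. Many Aux/IAA genes are themselves switched on by auxin, which closes a negative feedback loop, and in shaded seedlings phytochrome-interacting factors (PIFs) act both on auxin synthesis genes and directly on some Aux/IAA genes.

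IAA29 had by far the largest response to low R:FR among these genes, and it rose in all 3 genotypes. IAA30 passed the test as higher in sav1-1 and in Col-0, both close to the threshold. Its difference in sav3-2 had the same direction and did not pass. IAA18 and IAA34 passed the test in no comparison. After low R:FR, IAA29 was lower in sav3-2 than in Col-0 and higher in sav1-1 than in sav3-2. None of the 4 genes passed the test for a difference in shade response between genotypes.

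Intensities below were quantile normalized between arrays, and differences are on the scale log2(intensity + 16), which understates the change of dim probe sets. A probe set passed the test when its limma p, adjusted by the Benjamini-Hochberg method over the 17125 probe sets tested in a comparison, was under 0.05. Array medians as deposited ranged from 34.5 to 65.9, and arrays of a group correlated with r between 0.973 and 0.987. The 6 arrays numbered 3 lay to 1 side of their groups on the second principal component, which held 12.3% of the variance, so calls that change without them are given both ways. The labels call the arrays of a group independent biological replicates. In RNA of whole seedlings, fewer cells that express a gene and less RNA per cell cannot be told apart. LHCB4.1, PRK and RCA of green tissue, PYK10, EXPA7 and EXPA18 of roots and the seed storage gene OLEO3 were the tissue markers measured. Of these 7, 0 passed the test in any of the 12 comparisons. Between 0.0% and 1.85% of all probe sets passed per comparison, so 0 of 7 is near that share.

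**Figure D1:**
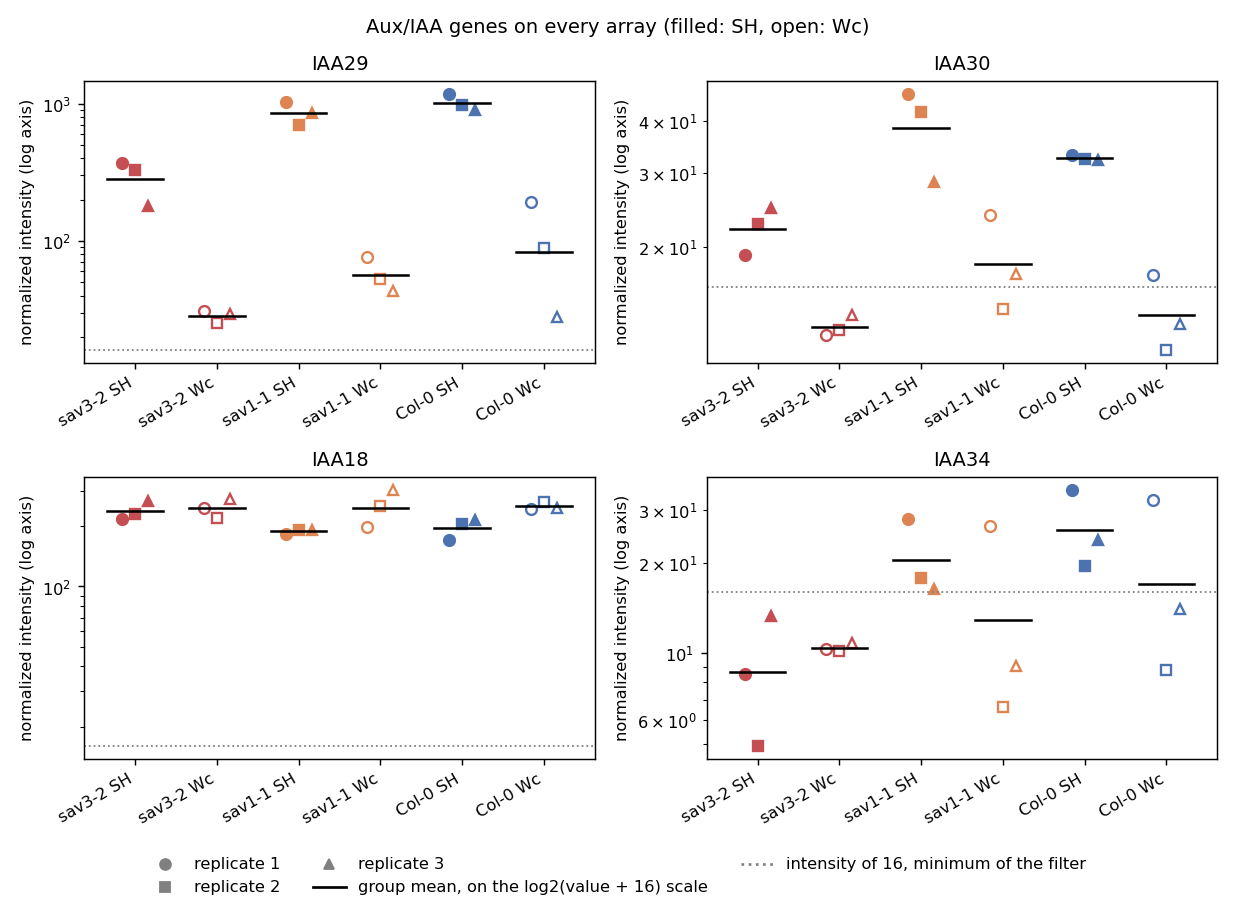
Quantile-normalized intensity (log axis, a separate range in each panel) of IAA29, IAA30, IAA18 and IAA34 on each of the 18 arrays, with filled marks for SH, open marks for Wc, a marker shape per replicate number, a bar at each group's mean on the log2(value + 16) scale, and a dotted line at an intensity of 16, the filter's minimum. IAA29 separates SH from Wc in each genotype, its 3 Col-0 Wc arrays spread from 27.9 to 193, and IAA34 lies under 16 on all 6 sav3-2 arrays.

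IAA29 (probe set 253423_at, locus AT4G32280) is an Aux/IAA gene widely used as a reporter of shade and a known target of PIFs. In sav3-2 its intensities were 372, 328 and 179 in SH, against 30.9, 25.2 and 29.3 in Wc. In sav1-1 they were 1024, 702 and 859 in SH, against 75.7, 52.7 and 43.3 in Wc. In Col-0 they were 1176, 971 and 899.9 in SH, against 193, 88.7 and 27.9 in Wc. Every SH array was above every Wc array of the same genotype. On the log2 scale the spread within groups was widest in Col-0 Wc, where replicate 3 was below all arrays of sav1-1 Wc and within the range of sav3-2 Wc.

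Mean IAA29 intensity was 10.3 times as high in SH as in Wc for sav3-2, 15.1 times for sav1-1 and 9.86 times for Col-0. On the log2 scale the rise was 2.74 in sav3-2 (SE 0.35, limma adjusted p = 7.32e-05), 3.59 in sav1-1 (adjusted p = 7.47e-07) and 3.38 in Col-0 (adjusted p = 2.19e-06). By size of increase IAA29 ranked number 4 of 17125 probe sets in sav3-2, number 4 in sav1-1 and number 2 in Col-0. The rise was seen in all 3 same-numbered pairs of each genotype. Within these pairs it measured 3.05, 3.06 and 2.11 in sav3-2, between 3.39 and 3.88 in sav1-1, and 2.51, 3.24 and 4.38 in Col-0. The Col-0 pairs spread more than those of either mutant, with an SD over 3 arrays of 0.20 in Col-0 SH and 1.13 in Col-0 Wc. Without the arrays numbered 3 the rises were 3.05, 3.45 and 2.89 in sav3-2, sav1-1 and Col-0, and all 3 still passed the test.

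In order of mean level, IAA29 stood highest in Col-0 SH and then in sav1-1 SH, and these groups overlapped. Next came sav3-2 SH, which overlapped neither of them. Col-0 Wc followed, and its highest array, at 193, exceeded the lowest of sav3-2 SH, at 179. Below it, sav1-1 Wc overlapped Col-0 Wc, and sav3-2 Wc was lowest and did not overlap sav1-1 Wc.

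IAA30 (251246_at, AT3G62100) encodes a noncanonical Aux/IAA protein that lacks the domain II degron. Its intensities in sav3-2 were 19.1, 22.6 and 24.7 in SH, against 12.3, 12.6 and 13.8 in Wc. In sav1-1 they were 46.3, 42.0 and 28.6 in SH, against 23.8, 14.2 and 17.2 in Wc. In Col-0 they were 33.2, 32.5 and 32.1 in SH, against 17.1, 11.3 and 13.1 in Wc. All 9 SH arrays lay above 16, the intensity at which the filter on dim probe sets is set, against 3 of the 9 Wc arrays. SH and Wc did not overlap in any genotype.

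The mean intensity of IAA30 was 1.72 times as high in SH as in Wc for sav3-2, 2.12 times for sav1-1 and 2.36 times for Col-0. On the log2 scale IAA30 rose by 0.67 in sav1-1 (SE 0.16, limma adjusted p = 0.031) and by 0.71 in Col-0 (SE 0.16, adjusted p = 0.0281). In sav3-2 the difference was 0.40 (95% interval 0.06 to 0.74, adjusted p = 0.466). Both calls are close to the threshold. Without the arrays numbered 3 the differences were 0.78 in sav1-1 (adjusted p = 0.0892) and 0.69 in Col-0 (adjusted p = 0.197). Leaving out 1 array at a time ended the sav1-1 call for 4 of 18 arrays (replicates 1 and 2 of sav1-1 SH and 2 and 3 of sav1-1 Wc), with differences from 0.57 to 0.81. It ended the Col-0 call for 5 of 18 (all 3 of Col-0 SH and replicates 2 and 3 of Col-0 Wc), with differences from 0.64 to 0.79.

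The order of IAA30 levels was sav1-1 SH, Col-0 SH, sav3-2 SH, sav1-1 Wc, Col-0 Wc and sav3-2 Wc. Only Col-0 SH and sav3-2 SH, among neighbours in that order, did not overlap.

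IAA18 (246376_at, AT1G51950) is an Aux/IAA gene known from gain-of-function alleles that disturb embryo patterning and lateral root formation. In sav3-2 it had intensities of 218, 231 and 268 in SH, against 246, 219.6 and 273 in Wc. In sav1-1 these were 182, 191 and 192 in SH, against 198, 251 and 304 in Wc. In Col-0 they were 170, 206 and 214 in SH, against 244, 263 and 247 in Wc. SH lay wholly below Wc in sav1-1 and in Col-0, and the groups overlapped in sav3-2. The differences were -0.04 in sav3-2 (limma adjusted p = 0.965), -0.37 in sav1-1 (95% interval -0.64 to -0.09, adjusted p = 0.284) and -0.33 in Col-0 (95% interval -0.61 to -0.06, adjusted p = 0.441), each with an SE of 0.13. In order of mean level the 3 Wc groups came first, namely Col-0, sav1-1 and sav3-2, and they overlapped each other. They were followed by sav3-2 SH, which overlapped sav3-2 Wc but not Col-0 SH, the next group, and sav1-1 SH was lowest.

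IAA34 (260742_at, AT1G15050) encodes another Aux/IAA protein without domain II, known in the apical hook as a substrate of the kinase TMK1, whose phosphorylation stabilizes it. Its intensities were 8.56, 4.92 and 13.3 in sav3-2 SH, against 10.3, 10.2 and 10.8 in sav3-2 Wc. In sav1-1 they were 28.1, 17.9 and 16.4 in SH, against 26.4, 6.61 and 9.07 in Wc. In Col-0 they were 35.0, 19.6 and 23.9 in SH, against 32.4, 8.82 and 14.0 in Wc. SH and Wc overlapped in every genotype. Replicate 1 was the highest array of its group in sav1-1 and in Col-0, under both lights. IAA34 was above 16 on 8 of 18 arrays in all, 4 of 6 of sav1-1, 4 of 6 of Col-0 and 0 of 6 of sav3-2. The shade differences were -0.10 in sav3-2 (limma adjusted p = 0.959), 0.34 in sav1-1 (adjusted p = 0.840) and 0.33 in Col-0 (adjusted p = 0.870), with an SE of 0.25. The 95% interval reached 0.86 in sav1-1 and in Col-0, which includes a rise of the size measured for IAA30. Groups ran from Col-0 SH through sav1-1 SH, Col-0 Wc, sav1-1 Wc and sav3-2 Wc to sav3-2 SH, and each overlapped the next.

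In the shade comparison of sav3-2, 1 of the 4 genes was called higher, where 0.631% of all probe sets were. In sav1-1 it was 2 of 4 (1.38% of all) and in Col-0 also 2 of 4 (0.94% of all). Called in either direction were 0.806%, 1.85% and 1.12% of all probe sets in sav3-2, sav1-1 and Col-0. With the replicate number as a block, 277 in place of 138 probe sets were called in sav3-2 and 500 in place of 316 in sav1-1, and the calls of the 4 genes were as without it. SH arrays did not overlap Wc arrays for 2 of 4 genes in sav3-2 (12.8% of all probe sets), 3 of 4 in sav1-1 (15.0%) and 3 of 4 in Col-0 (11.7%). The median difference of the 4 genes was 0.18 in sav3-2, 0.50 in sav1-1 and 0.52 in Col-0, and the medians over all probe sets were -0.01 in each genotype. IAA29, IAA30 and IAA34 had positive differences in both sav1-1 and Col-0, IAA18 a negative one.

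**Figure D2:**
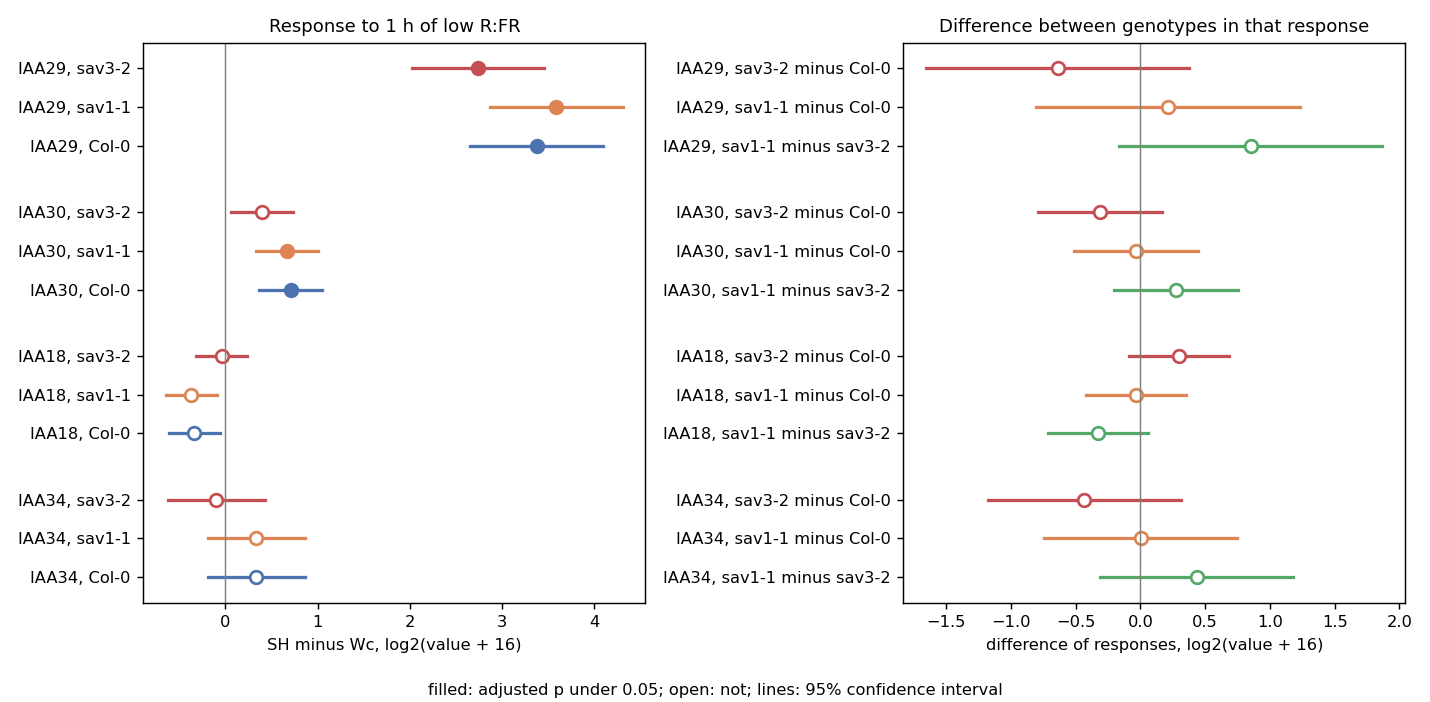
Left, SH minus Wc of the 4 genes in sav3-2, sav1-1 and Col-0 on the log2(value + 16) scale; right, the difference between genotypes in that response; lines are 95% confidence intervals and filled points have an adjusted p under 0.05. IAA29 is filled in all 3 genotypes, between 2.74 and 3.59, IAA30 in sav1-1 and Col-0, and no point on the right is filled.

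Whether the mutants respond differently from the wild type was tested as a difference of differences. For IAA29 the shade response in sav3-2 was smaller than in Col-0 by an estimate of -0.64 (SE 0.49, 95% interval -1.66 to 0.38), which did not pass the test (limma adjusted p = 1.00). Single Col-0 Wc arrays moved this estimate in both directions. It was -1.18 without replicate 1 of that group, -0.06 without replicate 3 and 0.15 without all arrays numbered 3, and none of these passed. Between sav1-1 and Col-0 the IAA29 responses differed by 0.21 (95% interval -0.80 to 1.23). That value was -0.33 without replicate 1 of Col-0 Wc, 0.80 without replicate 3 of it and 0.56 without the arrays numbered 3, so its direction turned with 1 array. Between sav1-1 and sav3-2 the responses differed by 0.85 (95% interval -0.17 to 1.87), or by 0.41 without the arrays numbered 3. For IAA30 the response was -0.31 in sav3-2 relative to Col-0 (95% interval -0.79 to 0.17), -0.04 in sav1-1 relative to Col-0 and 0.27 in sav1-1 relative to sav3-2. The 4 genes gave 0 calls among these 3 comparisons, in which 0.0409%, 0.0% and 0.0409% of all probe sets were called for sav3-2 against Col-0, sav1-1 against Col-0 and sav1-1 against sav3-2. The comparison of sav1-1 with Col-0 gave 0 calls by limma over all probe sets. In it 431 probe sets (2.52% of all) had an unadjusted limma p under 0.05, and 2 were called without the arrays numbered 3. On the linear scale the mean IAA29 intensity rose by 265 in sav3-2, 804 in sav1-1 and 912 in Col-0; neither these increments nor the ratios above were tested against each other. Same-numbered SH to Wc ratios ran between 6.11 and 13.0 in sav3-2, between 13.3 and 19.8 in sav1-1 and between 6.11 and 32.3 in Col-0, so the genotypes' ranges overlap.

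After low R:FR, the largest differences between sav3-2 and Col-0 among the 4 genes were those of IAA29 and IAA34. IAA29 averaged 293 ± 101 in sav3-2 SH and 1016 ± 143 in Col-0 SH (SD, n = 3 each), and was lower in sav3-2 by a log2 difference of -1.79 (SE 0.35, limma adjusted p = 0.0081). It was the number 11 of 17125 probe sets by size of decrease. Without replicate 3 of sav3-2 SH the value was -1.49 (adjusted p = 0.0591) and without replicate 1 of Col-0 SH -1.68 (adjusted p = 0.0508). IAA34 averaged 8.92 ± 4.20 in sav3-2 SH and 26.1 ± 7.97 in Col-0 SH, a difference of -0.75 (95% interval -1.28 to -0.23, adjusted p = 0.215). The differences of IAA30 and IAA18 were -0.35 (adjusted p = 0.434) and 0.26 (adjusted p = 0.488).

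The arrays of sav3-2 SH and Col-0 SH did not overlap for any of the 4 genes, where 15.3% of all probe sets did not overlap. IAA34 was under 16, the filter's minimum, on all 6 sav3-2 arrays and was kept only through sav1-1 and Col-0 arrays. Its lack of overlap is therefore partly set by the filter. IAA29, IAA30 and IAA34 were lower on every sav3-2 SH array, and IAA18 was higher on each. Of these 4, 1 was called, against 1.03% of all probe sets (397 in place of 177 with the replicate number as a block). OLEO3 was the tissue marker with the largest difference in the same comparison, at -0.65, and the root markers EXPA7, EXPA18 and PYK10 were at -0.30, -0.29 and 0.04, none of them called; their part in the result was not tested.

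Between sav1-1 SH and sav3-2 SH the picture was similar, with the sav3-2 arrays shared by both comparisons. IAA29 averaged 862 ± 161 in sav1-1 SH and was higher than in sav3-2 SH by 1.55 (SE 0.35, limma adjusted p = 0.0239). That call was lost when replicate 2 or 3 of sav3-2 SH or any of the 3 arrays of sav1-1 SH was left out, with values from 1.25 to 1.74 over all 18 arrays left out in turn. IAA30 differed by 0.52 (95% interval 0.18 to 0.85, adjusted p = 0.179), IAA34 by 0.56 (95% interval 0.03 to 1.09, adjusted p = 0.509) and IAA18 by -0.32 (adjusted p = 0.445). Arrays of the pair did not overlap for 4 of 4 genes (15.1% of all), and 1 was called (1.31% of all, or 404 in place of 225 probe sets with the replicate number as a block). For IAA34, kept only through sav1-1 and Col-0 arrays, the lack of overlap is again partly set by the filter. EXPA7 and EXPA18, both of root hairs, differed by 0.71 and 0.48 in the same direction without passing the test, and PYK10 by -0.14. In Wc the log2 means in sav1-1 and sav3-2 were 6.04 and 5.43 for EXPA7 and 6.24 and 5.70 for EXPA18. For PYK10 they were 12.28 and 12.30, and none of these was called. The part of these markers was not tested.

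The arrays of sav1-1 SH and Col-0 SH overlapped for all 4 genes (14.3% of all probe sets did not overlap), and 0 of 4 were called by limma (0.204% of all). IAA29 differed by -0.24 (95% interval -0.96 to 0.48), IAA30 by 0.16, IAA18 by -0.05 and IAA34 by -0.19. None of the 4 had an unadjusted p under 0.05 in this comparison, where 8.16% of all probe sets did.

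In white light, IAA29 averaged 28.5 ± 2.95 in sav3-2 Wc, 57.2 ± 16.7 in sav1-1 Wc and 103 ± 83.3 in Col-0 Wc. The difference between sav3-2 and Col-0 was -1.15 (SE 0.35, 95% interval -1.87 to -0.43), number 6 of 17125 by size of decrease, and it did not pass (limma adjusted p = 0.253). When the replicate number was blocked, this difference had an SE of 0.24 and an adjusted p of 0.0136. It was -1.74 (adjusted p = 0.00118) without replicate 3 of Col-0 Wc and -0.61 (adjusted p = 0.824) without replicate 1 of that group, so single arrays moved it on either side of the threshold. sav1-1 Wc differed from Col-0 Wc by -0.45 (95% interval -1.17 to 0.27), a value of 0.09 without replicate 1 of Col-0 Wc, -1.04 without its replicate 3 and -0.89 without the arrays numbered 3, none of them called. It differed from sav3-2 Wc by 0.70 (95% interval -0.02 to 1.42, adjusted p = 0.593).

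None of the other members was called in white light. IAA30 differed by -0.04 between sav3-2 and Col-0, 0.20 between sav1-1 and Col-0 and 0.24 between sav1-1 and sav3-2. For IAA18 these differences were -0.03, -0.02 and 0.01, and for IAA34 they were -0.32, -0.19 and 0.13. By limma 0 of 4 genes were called in each of these 3 comparisons, where 0.479%, 0.0934% and 0.66% of all probe sets were called for sav3-2 against Col-0, sav1-1 against Col-0 and sav1-1 against sav3-2. Blocked by replicate number, these comparisons gave 207, 92 and 274 calls over all probe sets, in place of 82, 16 and 113. At an unadjusted limma p under 0.05 there was 1 of the 4 genes, namely IAA29 between sav3-2 and Col-0, a comparison in which 7.51% of all probe sets reached that p. Arrays did not overlap for 0 of the 4 genes between sav3-2 and Col-0 (11.4% of all probe sets) and for 2, IAA29 and IAA30, between sav1-1 and sav3-2 (12.8% of all).

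**Figure D3:**
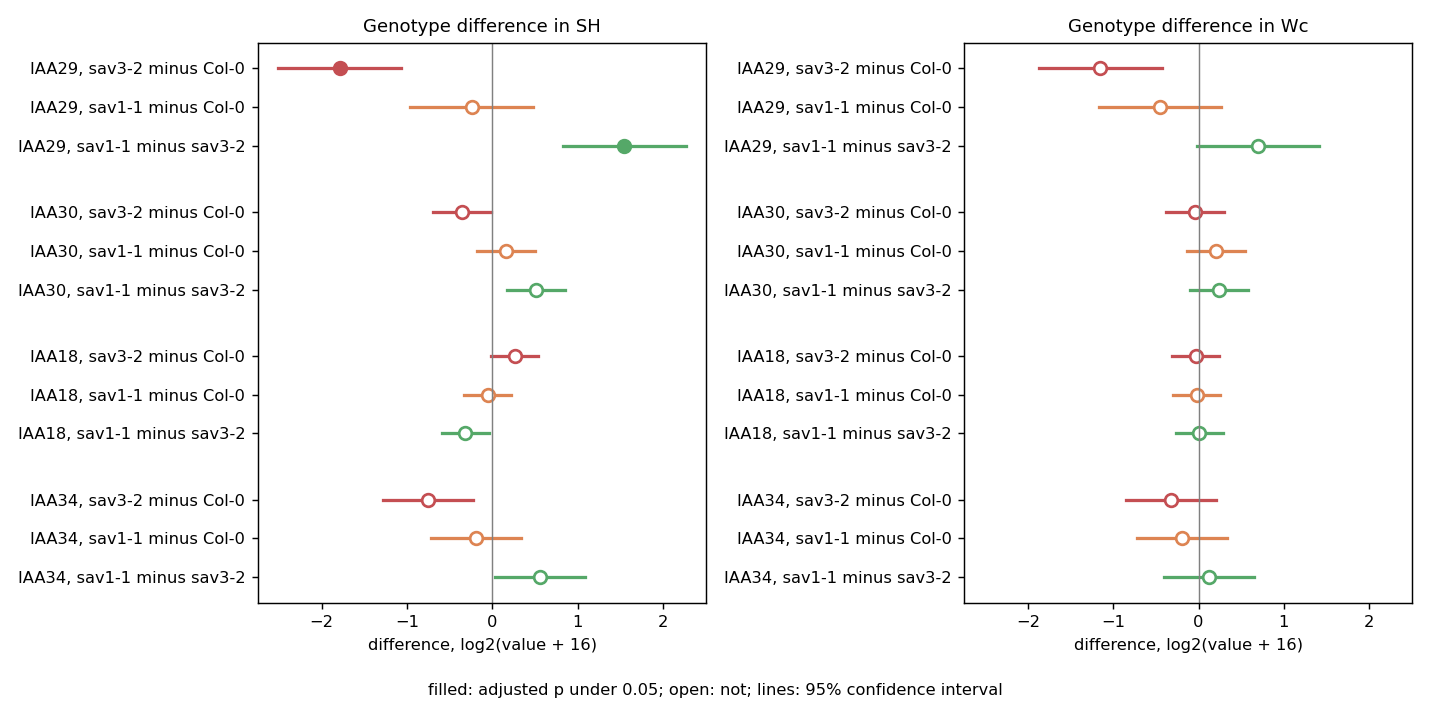
Differences between genotypes in SH (left) and in Wc (right) for the 4 genes on the log2(value + 16) scale, with 95% confidence intervals; filled points have an adjusted p under 0.05. In SH, IAA29 is filled for sav3-2 minus Col-0 at -1.79 and for sav1-1 minus sav3-2 at 1.55, and no point is filled in Wc.

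The rest of the Aux/IAA and auxin response machinery was thinly covered by the annotation. Of 42 further Aux/IAA names looked for, 3 were given by a probe set, IAA20, IAA31 and IAA33, and none of them passed the filter on dim probe sets, with highest intensities of 14.9, 18.2 and 14.8. No probe set used here names any of 22 receptors, SCF subunits and corepressors or any of 26 auxin response factors, so nothing is said of them.

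The list of auxin-induced targets held 105 names and took in families such as GH3 and SAUR, without a check that each member is induced by auxin. Of these names, 8 were given by a probe set and 7 passed the filter. Among these 7, low R:FR raised 2 in sav3-2, 4 in sav1-1 and 3 in Col-0 and lowered none. Of all probe sets, 0.631%, 1.38% and 0.94% were called higher. Without the arrays numbered 3 the counts among the 7 were 1, 4 and 4. Their median differences were 0.29, 0.64 and 0.57, against -0.01 over all probe sets in each genotype. The list was chosen with earlier results of these data known. WES1, which like other GH3 enzymes conjugates auxin to amino acids, rose by 0.59 in sav3-2 (limma adjusted p = 0.0394), 1.24 in sav1-1 and 0.96 in Col-0; the sav3-2 call was lost when any of 10 of the 18 arrays was left out and without the arrays numbered 3 (0.52, adjusted p = 0.0598). GH3.17, of the same family, rose by 0.64 in sav1-1 (adjusted p = 0.0141), a call lost without replicate 1 or 2 of sav1-1 SH or replicate 1 of sav1-1 Wc (0.52 to 0.61). In Col-0 GH3.17 differed by 0.57 (adjusted p = 0.0536), and it was called there without the arrays numbered 3 (0.53, adjusted p = 0.0148) and in some other fits. After low R:FR, HAT2, GH3.3 and WES1 were lower in sav3-2 than in Col-0, by -2.16 for HAT2, -1.77 for GH3.3 and a smaller size for WES1 (adjusted p = 0.000158), as was IAA29. GH3.3 was also called higher in sav1-1 SH than in Col-0 SH (log2 means 9.56 and 8.42), the only such call among the 7 targets. In that comparison 0.204% of all probe sets were called. HAT2 and WES1, but not GH3.3, were already called lower in sav3-2 than in Col-0 in white light. HAT2 means there were 7.06 in sav3-2 Wc and 8.03 in Col-0 Wc. The white light call of WES1 was lost when any of 4 of the 18 arrays was left out and under several other settings. LBD16, a lateral root regulator, was higher in sav1-1 SH than in sav3-2 SH by 0.64 (adjusted p = 0.0346). That call was lost when any of the 6 arrays of these groups was left out (0.53 to 0.70) and without the arrays numbered 3 (0.56, adjusted p = 0.135). HAT2, a homeodomain leucine zipper gene, and GH3.3 were the auxin-induced targets whose shade response itself passed the test of being smaller in sav3-2 than in Col-0, by -1.19 (adjusted p = 0.0102) and -1.48 (adjusted p = 0.00147). The HAT2 call was lost without replicate 2 of Col-0 Wc (-1.12, adjusted p = 0.0602), with a pseudocount of 1 (-1.17, adjusted p = 0.0502) and with a fit on the groups compared alone (adjusted p = 0.0616). With no normalization between arrays neither was called, at -0.87 for HAT2 and -1.19 for GH3.3. For IAA29 that difference was -0.64 with an SE of 0.49, against SEs of 0.19 for HAT2 and 0.20 for GH3.3.

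Genes acting before auxin perception were also measured in part. Of 36 auxin synthesis and transport names looked for, 5 were given by a probe set, 3 passed the filter and 1 rose. That gene was YUC2, a flavin monooxygenase of auxin synthesis, which rose by 1.16 in sav3-2, 1.04 in sav1-1 and 0.77 in Col-0 (SE 0.12, limma adjusted p at most 0.000846). Of 41 names of phytochromes, PIFs and shade regulators looked for, only 2 were given by a probe set, BIM1 and FHL. Both rose in all 3 genotypes, where 0.631%, 1.38% and 0.94% of all probe sets were called higher in sav3-2, sav1-1 and Col-0. BIM1, a bHLH partner of brassinosteroid signalling, rose by 1.65 in sav3-2, by 1.46 in sav1-1 and least in Col-0 (adjusted p = 0.00375). FHL, which helps carry phytochrome A into the nucleus, rose by 1.21, 1.65 and 1.13, and its sav3-2 and Col-0 calls (adjusted p = 0.0289 and 0.0343) were lost when any of 5 and 4 of the 18 arrays, all from the groups compared, was left out. Unlike IAA29, none of YUC2, BIM1 and FHL was called as different between genotypes in either light; that contrast between the genes was not itself tested.

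**Figure D4:**
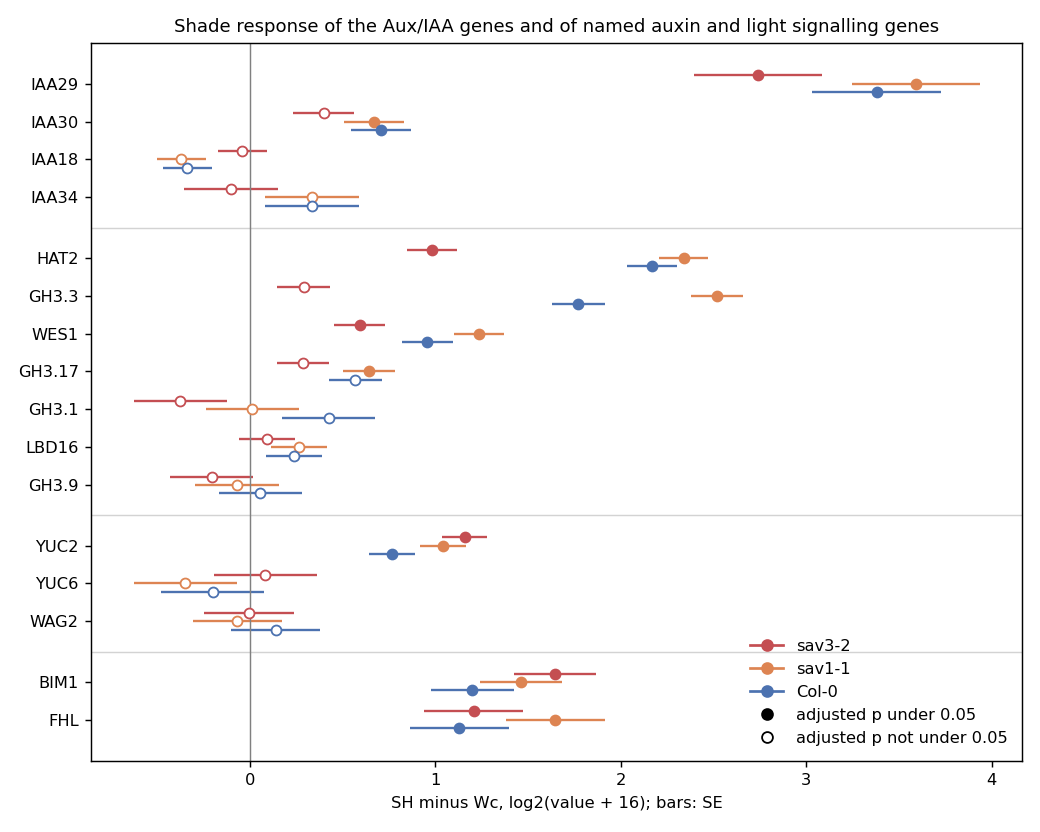
SH minus Wc on the log2(value + 16) scale, with SE, for the 4 Aux/IAA genes, 7 auxin-induced targets, 3 auxin synthesis and transport genes and 2 light regulators in sav3-2, sav1-1 and Col-0; filled points have an adjusted p under 0.05. IAA29 has the largest differences shown in each genotype, and its error bars, at an SE of 0.35, are the widest.

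The named genes whose values over the 18 arrays were most like those of IAA29 were AT5G66590 (Pearson r = 0.961), AT3G19680 (0.959), BZIP61 (0.957), AT1G54200 (0.948) and AT5G02540 (0.947), of 9468 compared. These arrays fall into 6 groups under 2 lights, so any gene with a clear shade response shares part of this pattern, and the correlations are a description only. BZIP61, a basic leucine zipper gene, had shade differences of 0.96, 1.06 and 1.22 in sav3-2, sav1-1 and Col-0. AT5G02540 had 2.16, 2.18 and 1.59, the only one of the 5 with its lowest difference in Col-0. The genes most like IAA30 were AT1G21050 (r = 0.921), AT3G44610 (0.915), AT4G27280 (0.912), AT4G32290 (0.910) and AT3G19680 (0.890). AT4G27280, a gene for a calcium-binding EF-hand protein, had its largest difference, 2.22, in Col-0 and its smallest in sav3-2. AT3G19680 was on both lists. For all 5 genes of each list, as for IAA29 and IAA30 themselves, the shade difference was smaller in sav3-2 than in sav1-1. The lists were picked by likeness over these same arrays, so a shared order is partly built in, and it was not tested.

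**Figure D5:**
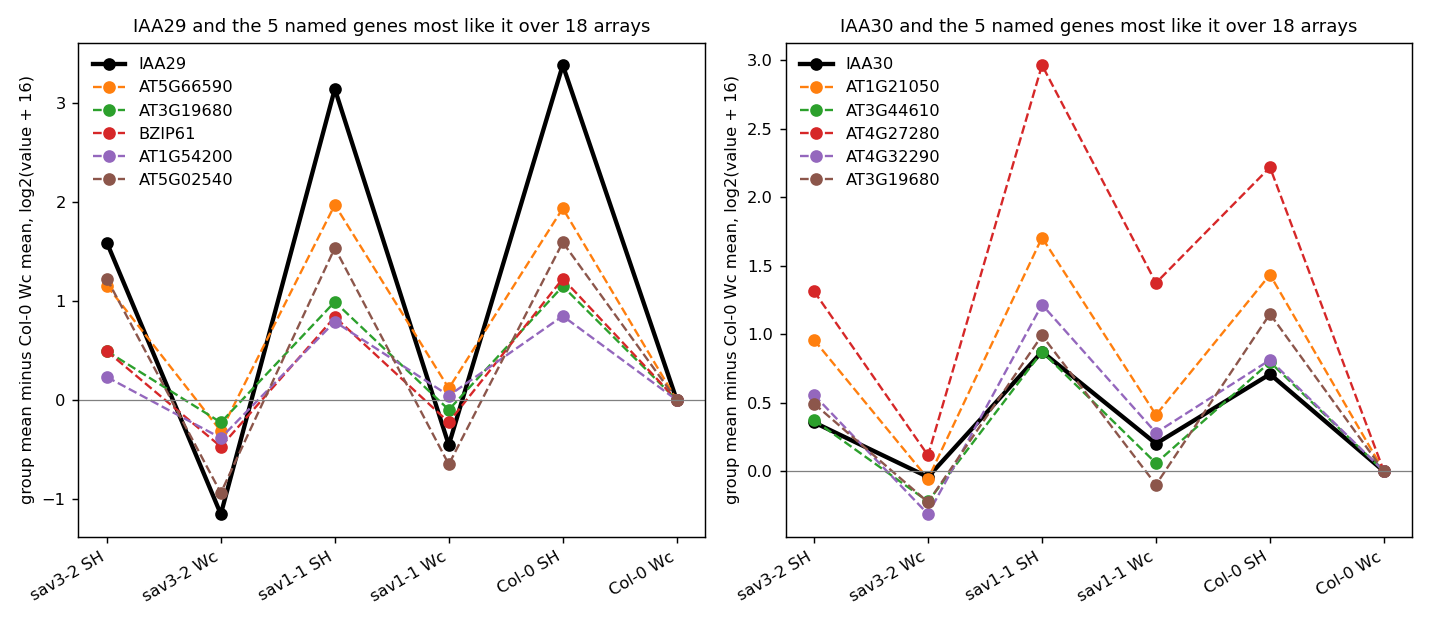
Group means relative to Col-0 Wc on the log2(value + 16) scale, for IAA29 (left) and IAA30 (right), each with the 5 named genes of highest Pearson r over the 18 arrays; lines join the 6 groups only to guide the eye. IAA29 runs between -1.15 in sav3-2 Wc and 3.38 in Col-0 SH, a wider range than any of its 5 genes.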

How the data were processed

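The authors deposited linear intensity values of 22810 probe sets on each array, and per the submitters' processing notes used GCRMA, with no version. Array medians of the deposited intensity differed, so values were quantile normalized after the 64 control probe sets were removed; a shift of most genes in 1 direction cannot be seen after that. Probe sets with log2 intensity above 4 on at least 3 of 18 arrays were kept (17125 of 22746), and log2(value + 16) was modelled in R 4.3.3 by limma 3.58.1 (6 group means, eBayes with an intensity trend, Benjamini-Hochberg adjustment, two-sided tests), in 12 comparisons. The procedure was tested on simulated data with independent noise on each array and changes planted only in probe sets brighter than IAA30 and IAA34. It therefore does not cover dim probe sets or deviations shared by same-numbered arrays. There were no detection calls in the values used, and precision is limited by the number of arrays.

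The 4 genes and all gene lists were chosen with earlier results of these data known. Named genes are these 4, list genes called in at least 1 comparison, and the 5 genes of highest r with IAA29 and with IAA30; tissue markers and genes named to complete a count come on top. Names in the platform annotation were brought up to date with TAIR10.1 genes (13436 of 13513 matched).

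Groups and replicate numbers came from the sample titles. The reported fit did not use these numbers, because no label says that a number marks a shared day. All 3 same-numbered pairs deviated together with r above 0.1 in 7 of the 9 comparisons of 2 groups. The exceptions were SH against Wc in Col-0 (lowest r 0.0714) and sav1-1 against Col-0 in SH (lowest r 0.0963), where the other pairs were above 0.1. Alternatives were the values as deposited, median scaling, pseudocounts of 1 and 64, no filter, a stricter filter, the replicate block, own groups only, no intensity trend, array weights and each array left out. Leaving out the 6 arrays numbered 3 was added after seeing the data.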

Additional observations from a re-analysis of the deposited data

How the results depend on the processing

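Over 11 alternative settings, 473 of 504 fits of the 48 comparisons of the 4 genes kept direction and side of the threshold, 10 lost a call, 4 gained one, none reversed a call and 17 changed the sign of a difference called in neither fit. Leaving out 1 array changed the sign of such a difference in 26 of 864 fits. The rise of IAA29 was called in all 3 genotypes under all 11 settings and with any of the 18 arrays left out, between 1.91 and 3.26 in sav3-2, 2.93 and 3.91 in sav1-1, and 2.81 and 3.67 in Col-0 over the settings. The stricter filter removed IAA30 and IAA34 and gave them no value.

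IAA29 between sav1-1 and sav3-2 in SH was no longer called with a pseudocount of 1 (1.60, limma adjusted p = 0.0715), no filter (1.55, adjusted p = 0.0505) or no intensity trend (1.55, adjusted p = 0.0597). IAA29 between sav3-2 and Col-0 in Wc became called with no normalization between arrays (-1.24, adjusted p = 0.00945), the replicate block (-1.15, adjusted p = 0.0136), array weights (-1.26, adjusted p = 0.0258) and without the arrays numbered 3 (-1.74, adjusted p = 0.000332). IAA30 in shade lost its sav1-1 call with no normalization (0.73), a pseudocount of 1 (1.04), own groups only (0.67) and without the arrays numbered 3 (0.78), at adjusted p of 0.242, 0.0599, 0.0948 and 0.0892. Its Col-0 call was lost with no normalization (0.62), own groups only (0.71) and without the arrays numbered 3 (0.69), at adjusted p of 0.812, 0.137 and 0.197. The cause was not tested.

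With each array left out in turn, IAA29 ranged between -1.98 and -1.49 for sav3-2 minus Col-0 in SH, 1.25 and 1.74 for sav1-1 minus sav3-2 in SH, and -1.74 and -0.61 for sav3-2 minus Col-0 in Wc. IAA30 in shade ranged between 0.57 and 0.81 in sav1-1 and between 0.64 and 0.79 in Col-0.

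The replicate block changed no other call of the 4 genes. Over all probe sets, the block gave 356 in place of 191 calls for SH against Wc in Col-0. It gave 156 in place of 35 for sav1-1 against Col-0 in SH. In both comparisons the lowest r of the same-numbered pairs was under 0.1. Counts over all settings ran between 79 and 277 for the shade response of sav3-2 (138 in the reported fit), 145 and 528 for sav1-1 (316), and 85 and 356 for Col-0 (191). They ran between 83 and 397 for sav3-2 against Col-0 in SH (177), 21 and 156 for sav1-1 against Col-0 in SH (35), and 96 and 404 for sav1-1 against sav3-2 in SH (225). In Wc the same comparisons gave between 30 and 207 (82), 4 and 113 (16) and 79 and 274 (113). The differences in response gave between 2 and 12 for sav3-2 against Col-0 (7), 0 and 2 for sav1-1 against Col-0 (0) and 5 and 12 for sav1-1 against sav3-2 (7). With no normalization between arrays the median of all probe sets moved to 0.11, 0.06 and -0.16 for the shade responses of sav3-2, sav1-1 and Col-0, so differences under that setting are relative to these. Under that setting the Col-0 rises of WES1 (0.78), YUC2 (0.63) and AT4G32290 (0.63) and the difference of WES1 between sav3-2 and Col-0 in SH (-0.79) were not called.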

Other observations

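The genes next to the 4 Aux/IAA genes in the TAIR10.1 gene order, looked up after the values had been seen and restricted to the nearest probe set tested on either side, gave these values. AT4G32290, separated from IAA29 by 1 protein-coding gene, rose in SH by 0.87 in sav3-2, 0.93 in sav1-1 and 0.81 in Col-0 (SE 0.13, limma adjusted p = 0.00056, 1.00e-04 and 0.000728). AT4G32290 is also among the 5 genes most like IAA30 over the arrays. AT4G32270, on the other side of IAA29, differed by -0.04, -0.10 and 0.11 and was not called.

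GAT1_2.1, whose gene adjoins IAA34, rose by 1.09 in sav3-2 (SE 0.22, limma adjusted p = 0.012). That call of GAT1_2.1 was lost without replicate 1 or 3 of sav3-2 SH or replicate 2 or 3 of sav3-2 Wc (0.90 to 1.09), and without the arrays numbered 3 (0.82, adjusted p = 0.105). In sav1-1 it differed by 0.70 (adjusted p = 0.145), which was called with the replicate number as a block (adjusted p = 0.0252), and in Col-0 by 0.52 (adjusted p = 0.494), while IAA34 itself was not called in any genotype. The nearest tested genes around IAA30 (AT3G62080 and AT3G62110) and IAA18 (AT1G51910 and AT1G51980) and AT1G15060 beside IAA34 were called in none of the 3 genotypes. AT1G51910 and AT1G51980 are separated from IAA18 by 5 and 3 protein-coding genes, and AT3G62080 from IAA30 by 1.

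The genes most like IAA18 and IAA34 over the 18 arrays had lower correlations, the highest being NAI1 (Pearson r = 0.833), a bHLH factor of endoplasmic reticulum bodies, for IAA18 and ATL8 (r = 0.838) for IAA34. NAI1 had shade differences of -0.26 in sav3-2, -0.64 in sav1-1 and -0.46 in Col-0.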
